A study of Mus musculus with 13 samples.

Results

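Immunoglobulin transcripts were followed through 10 rows of the count table: the kappa light-chain constant region Igkc, the lambda constant regions Iglc1 and Iglc2, the heavy-chain constant regions Ighm, Ighd, Igha, Ighg1, Ighg2b and Ighg2c, and Jchain. They were taken by symbol from 46958 rows, and 9 of the 10 passed the filter on low counts. Ighg2c did not pass and is described by its counts alone.

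The RNA came from kidney glomeruli isolated on magnetic beads; the mice were 6 months old, on a mixed C57/BL6, 129/SV and BALB/c background. The genotypes were LCDD, also given as kFRA (4 libraries), DH-LMP2A (4 libraries) and WT (5 libraries). LCDD stands for light chain deposition disease, a disorder of kidney tissue loaded with the light chain of a single plasma cell clone, and by its title the series asks whether such chains are toxic to glomeruli. Each library pooled 3 mice, except WT replicates 3, 4 and 5, which held 1 mouse each. As background, DH-LMP2A mice carry LMP2A, a membrane protein of Epstein-Barr virus, in the heavy-chain locus, where it lets B cells develop without surface immunoglobulin. The labels do not describe this allele, do not say whether LCDD mice carry it too, and do not say how the kFRA allele was built or from which species its constant region comes. Reads from a constant region of another species would not be counted in the mouse Igkc row.

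An antibody joins heavy and light chains, each with a variable part and a constant region. B cells assemble the variable part from V, D and J segments (V and J for a light chain) and splice it to a constant region: Igkc or an Iglc gene for light chains, Ighm and Ighd in naive B cells, and Igha, an Ighg gene or Ighe after class switching. Plasma cells secrete antibody, and Jchain encodes the small protein that links IgM and IgA into multimers. Glomeruli are known to hold few lymphocytes. In such bulk samples fewer B-lineage cells and less RNA per cell cannot be told apart.

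Library totals ran from 16687509 to 30587890 counts. The podocyte gene Nphs1, which encodes nephrin, was present in all 13 libraries at 429 CPM or more, and levels below are CPM (counts scaled to a common library size with TMM factors). Titles carry a code that libraries of different genotypes share, of 4 values numbered here in ascending order, and the second has no WT library. The 3 single-mouse WT libraries all carry the fourth code, so pooling and code cannot be told apart among them. They also held at most 1 count of the Y-linked gene Ddx3y, as did WT 1 (0 counts), against 8.20 to 100.3 CPM in the LCDD and DH-LMP2A libraries and 12.2 CPM in WT 2. The sex of the mice is not given in the labels.

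The joining segments are shown first because the kappa segments had no reads in LCDD alone, and the heavy-chain segments had reads almost only in WT. These are the 5 kappa J segments on chromosome 6, plus strand, and the 4 heavy-chain J segments on chromosome 12, minus strand, from GENCODE M21 transcripts on GRCm38. Capitals mark the codons of the conserved J motif: phenylalanine in kappa or tryptophan in heavy chains, then glycine, any residue and glycine. Igkj3 has no match to it.
Igkj1: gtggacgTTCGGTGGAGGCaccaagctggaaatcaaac
Igkj2: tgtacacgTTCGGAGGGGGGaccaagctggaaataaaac
Igkj3: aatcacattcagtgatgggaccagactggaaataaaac
Igkj4: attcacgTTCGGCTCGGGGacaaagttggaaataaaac
Igkj5: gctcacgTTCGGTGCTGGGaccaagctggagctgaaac
Ighj1: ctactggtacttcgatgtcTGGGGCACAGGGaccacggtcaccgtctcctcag
Ighj2: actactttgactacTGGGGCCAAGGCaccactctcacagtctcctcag
Ighj3: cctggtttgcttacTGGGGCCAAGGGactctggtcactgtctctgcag
Ighj4: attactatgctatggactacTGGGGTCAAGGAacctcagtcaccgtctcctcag
The kappa segments run from chr6:70722562-70722599 (Igkj1) to chr6:70723886-70723923 (Igkj5), upstream of Igkc. The heavy segments run from chr12:113429781-113429833 (Ighj1) to chr12:113428514-113428567 (Ighj4).

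No read was counted on any of the 5 Igkj segments in any LCDD library. The DH-LMP2A libraries held 5 to 11 such reads each and the WT libraries 6 to 29. All 5 segments had reads in both of those genotypes, from 3 (Igkj3) to 8 (Igkj5) summed over DH-LMP2A and from 6 (Igkj3) to 16 (Igkj5) summed over WT. Set against a floor of 3 counts per LCDD library, the summed Igkj level was at least 2.62-fold higher in DH-LMP2A and at least 3.58-fold higher in WT. The Ighj segments gave another order. None had a read in any DH-LMP2A library, LCDD 1 had 2 reads and the other LCDD libraries none, and the WT libraries had 8 to 14 each, at least 3.20-fold above the DH-LMP2A floor. These reads lie on short segments, and rearranged joins are absent from the reference genome, so the counts may miss joined transcripts.

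V segments were counted in every genotype for kappa. The 158 Igkv rows summed to 28 to 70 reads per LCDD library, 42 to 120 per DH-LMP2A library and 358 to 612 per WT library, and WT did not overlap the others. The 183 Ighv rows held 2 to 44 reads per LCDD library, 0 to 39 per DH-LMP2A library and 106 to 298 per WT library. The 3 Iglv rows held 4 to 25, 4 to 49 and 9 to 104 reads, with overlap between all genotypes. Diversity segments of the heavy chain had 3 reads in all, all of them in WT.

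**Figure D1:**
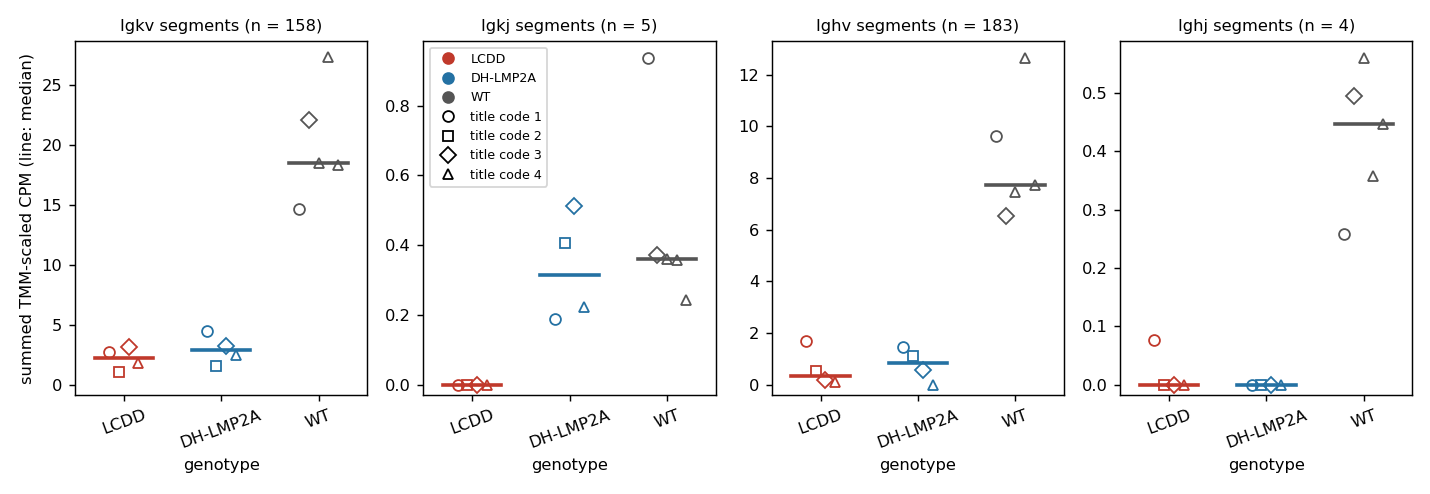
Summed TMM-scaled CPM of V and J segments of the kappa and heavy-chain loci in each library; each point is a library, its shape gives the title code, and the line is the median. Igkj lies at 0 in all 4 LCDD libraries and Ighj at 0 in all 4 DH-LMP2A libraries, while WT is highest for Igkv and Ighv.

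The leading kappa V segment differed between genotypes. Igkv6-32 had the most Igkv reads in LCDD (87 of 203, 42.9%) and in DH-LMP2A (60 of 274, 21.9%), and Igkv1-110 had the most in WT (216 of 2340, 9.23%). Igkv6-32 itself was found at 2, 12, 35 and 38 reads in LCDD replicates 1 to 4, of 70, 28, 59 and 46 Igkv reads. In DH-LMP2A it was found at 8, 17, 15 and 20 of 120, 42, 57 and 55 reads, and in WT at 14, 18, 15, 12 and 18 reads. Its counts overlapped between genotypes. Within LCDD and within DH-LMP2A, its share was lowest in the library of the first title code. Igkv1-110 was found at 0 to 4 reads per LCDD library and 1 to 5 per DH-LMP2A library, against 13 to 77 per WT library. Among heavy-chain V segments, Ighv3-6 led in WT (117 of 1064 reads) and had 0 reads in LCDD and 1 in DH-LMP2A. The leading segments of LCDD (Ighv1-26, with Ighv1-53 equal in reads) and of DH-LMP2A (Ighv1-53) rest on 4 and 6 reads.

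For the constant regions, 3 of the 9 genes tested were lower in LCDD than in WT, and the same 3 were lower in DH-LMP2A than in WT: Igkc, Igha and Jchain. Both comparisons share the WT libraries. By edgeR's quasi-likelihood test, 0.544% of all 16738 genes tested were called lower in LCDD than in WT (1.15% with the title code as a block) and 0.352% were called lower in DH-LMP2A (1.58% with the block). The members' median log2 fold change was -2.45 for LCDD against WT and -1.91 for DH-LMP2A against WT, beside 0.01 and 0.00 for all genes tested, and 8 of the 9 were lower in each. Between LCDD and DH-LMP2A no member was called by edgeR or by DESeq2, and none had an unadjusted p under 0.05, where 2.00% of all genes were called in either direction (6.10% with the block). An edgeR unadjusted p under 0.05 was found there for 2193 of the 16738 genes tested. The members' median there was -0.11, beside -0.01 for all genes.

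**Figure D2:**
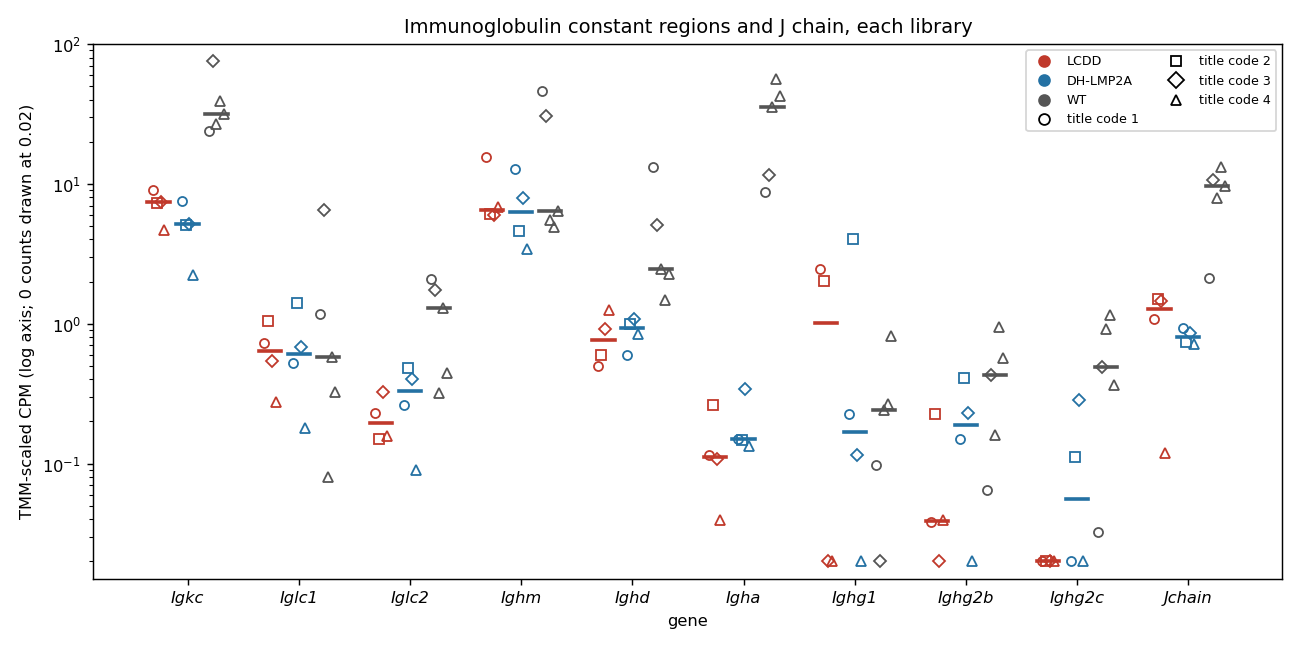
TMM-scaled CPM of the 10 genes in each library on a log axis; color gives the genotype, shape the title code, the bar is the median, and libraries with 0 counts are drawn at 0.02. Igkc, Igha and Jchain show every WT library above every LCDD and DH-LMP2A library, and Ighd shows the same order with a narrower gap. The share of all genes tested that show this order was not counted.

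Igkc (chr6:70726435-70726966, plus strand, 1 exon) was the most abundant member per kilobase in all 3 genotypes. It was found at 9.06, 7.30, 7.43 and 4.69 CPM in LCDD replicates 1 to 4, at 7.56, 5.11, 5.14 and 2.24 in DH-LMP2A replicates 1 to 4, and at 24.0, 75.8, 26.7, 39.2 and 31.4 in WT replicates 1 to 5. Every WT library lay above all others, and LCDD and DH-LMP2A overlapped. Igkc was 5.53-fold lower in LCDD than in WT (log2 fold change -2.47 ± 0.40, SE, edgeR adjusted p = 0.00711) and 7.84-fold lower in DH-LMP2A (-2.97 ± 0.41, edgeR adjusted p = 0.00608). LCDD against DH-LMP2A differed by 0.50 ± 0.40 on the log2 scale (edgeR adjusted p = 0.665). With a covariate of sex markers (Ddx3y less Xist) the WT differences were -3.22 and -3.67, and both were still called.

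Iglc2 and its neighbour Iglc3 are near-copies, while Iglc1 is more distant, and the stretches below show how far their reads can be told apart. They are 150 coding bases of the constant exon on chromosome 16, minus strand, GRCm38, from GENCODE M21; capitals mark bases that differ from Iglc2 at the same place.
Iglc2: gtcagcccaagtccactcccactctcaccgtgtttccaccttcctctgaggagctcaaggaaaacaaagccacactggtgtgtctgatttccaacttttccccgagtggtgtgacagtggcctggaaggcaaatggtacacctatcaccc
Iglc3: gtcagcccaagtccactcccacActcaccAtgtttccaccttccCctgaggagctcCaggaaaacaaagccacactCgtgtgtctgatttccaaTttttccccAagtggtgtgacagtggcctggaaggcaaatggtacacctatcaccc
Iglc1: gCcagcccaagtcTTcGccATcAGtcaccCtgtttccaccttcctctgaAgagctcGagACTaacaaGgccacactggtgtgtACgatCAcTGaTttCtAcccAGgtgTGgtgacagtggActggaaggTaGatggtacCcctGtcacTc
The stretches lie at chr16:19198703-19198852 (Iglc2), chr16:19065532-19065681 (Iglc3) and chr16:19061922-19062071 (Iglc1). Iglc3 differs from Iglc2 at 7 of the 150 bases and Iglc1 at 34. Over the whole coding sequence Iglc2 and Iglc3 are 96.2% identical, yet only 5 of the 241 windows of 75 bases (the read length) in Iglc2 occur unchanged in Iglc3. Iglc1 and Iglc2 are 73.4% identical and share no such window. How the authors' counting treated reads that match both is not given in the sources used here, so Iglc2 is uncertain to that extent. An exon of Iglc2 also overlaps that of Iglj2 on the same strand.

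Neither lambda member was called in any comparison. Iglc1 was found at 0.729, 1.05, 0.539 and 0.276 CPM in LCDD, 0.524, 1.41, 0.685 and 0.179 in DH-LMP2A, and 1.16, 6.49, 0.0801, 0.582 and 0.324 in WT. Its highest and its lowest library were both WT, and leaving out WT 2 turned the WT differences from -1.36 to 0.22 for LCDD and from -1.25 to 0.34 for DH-LMP2A on the log2 scale. Iglc2 was found at 0.230, 0.151, 0.323 and 0.158 CPM in LCDD, 0.262, 0.482, 0.400 and 0.0895 in DH-LMP2A, and 2.10, 1.73, 0.320, 1.30 and 0.446 in WT. The WT values were mostly higher but overlapped both other genotypes. Iglc2 differed from WT by -2.45 ± 0.62 in LCDD (SE, edgeR adjusted p = 0.0703) and -1.91 ± 0.60 in DH-LMP2A (edgeR adjusted p = 0.199). With the title code as a block it was called in both comparisons, at -2.81 (edgeR adjusted p = 0.0210) and -2.36 (edgeR adjusted p = 0.0470). Of the other lambda constant genes, Iglc3 had 5 to 51 reads per library and was not called, and Iglc4 had no read in any library.

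Igha (chr12:113254830-113260236, minus strand), the constant region of IgA, the antibody of mucosal secretions, had the widest gap between genotypes of the members. The LCDD libraries held 3, 7, 2 and 1 reads and the DH-LMP2A libraries 4, 4, 6 and 3, against 270, 188, 883, 1254 and 1042 in WT. In CPM this was 0.0394 to 0.263 in LCDD, 0.134 to 0.343 in DH-LMP2A, and 8.74, 11.6, 35.4, 56.1 and 42.3 in WT replicates 1 to 5. The WT libraries themselves split: the pooled WT 1 and WT 2 lay below the 3 single-mouse libraries. Igha was lower than WT by a log2 fold change of -7.79 ± 0.73 in LCDD (SE, edgeR adjusted p = 0.000148) and -7.34 ± 0.71 in DH-LMP2A (SE, edgeR adjusted p = 0.000472). Without the single-mouse libraries the differences were -6.23 and -5.75, with the sex marker covariate -6.26 and -5.77, and without LCDD 2 the first was -8.43; Igha was called each time. Because most LCDD and DH-LMP2A libraries lie near the floor of 3 counts, the size of the fold change is less certain than its direction.

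Jchain (chr5:88519809-88527891, minus strand, the gene for the J chain) was found at 1.07, 1.51, 1.45 and 0.118 CPM in LCDD, 0.935, 0.741, 0.856 and 0.716 in DH-LMP2A, and 2.14, 10.7, 7.89, 13.1 and 9.69 in WT. Every WT library lay above the rest; LCDD 4 (3 reads) was far below its group and WT 1 far below the other WT libraries. Jchain was 8.37-fold lower in LCDD than in WT (log2 fold change -3.07 ± 0.60, SE, edgeR adjusted p = 0.0194) and 10.6-fold lower in DH-LMP2A (-3.41 ± 0.62, edgeR adjusted p = 0.0295). This call was less stable than those of Igkc and Igha, which held in every alternative run. For LCDD against WT the edgeR adjusted p of Jchain was 0.0681 with only those genotypes in the fit, 0.214 with the sex marker covariate, 0.267 without the single-mouse libraries, and 0.0636, 0.0543 and 0.0507 without LCDD 1, WT 4 and WT 5. For DH-LMP2A against WT it was 0.143 with the covariate, 0.146 without the single-mouse libraries, 0.128, 0.0956 and 0.0848 without DH-LMP2A 2, 3 and 4, and 0.0673, 0.0701 and 0.0717 without WT 3, 4 and 5.

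**Figure D3:**
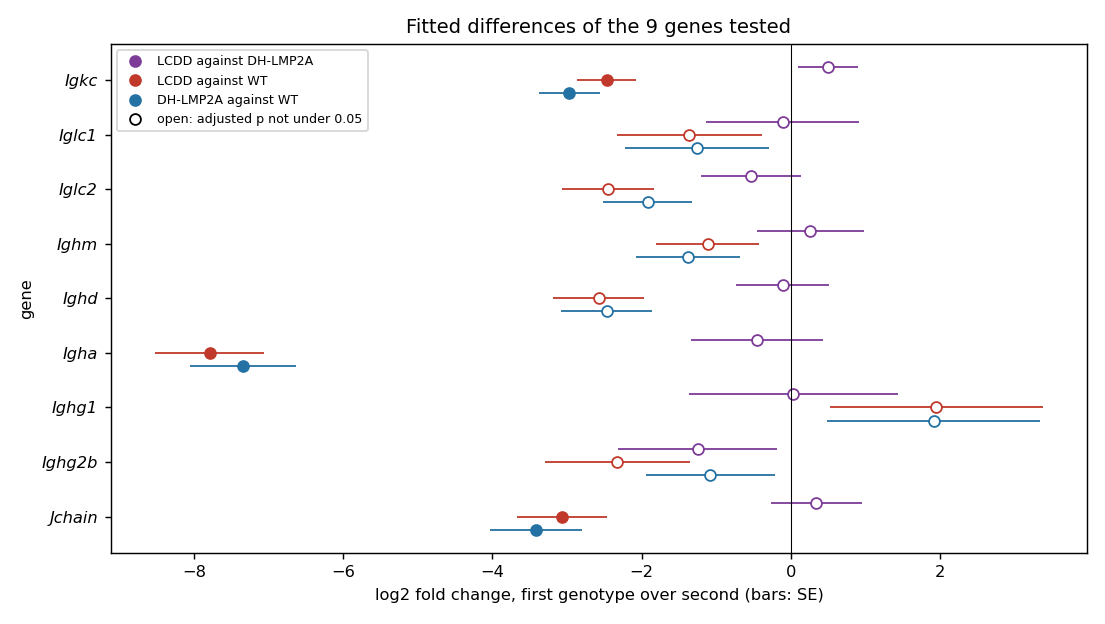
Fitted log2 fold changes of the 9 tested genes in the 3 comparisons, with SE bars; filled points have an edgeR adjusted p under 0.05. Igkc, Igha and Jchain are filled on the lower side in both comparisons with WT, and no point of LCDD against DH-LMP2A is filled.

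Ighm (chr12:113418558-113422730, minus strand), the constant region of IgM, was not called. It was found at 15.5, 6.14, 5.98 and 6.82 CPM in LCDD, 12.7, 4.63, 7.94 and 3.45 in DH-LMP2A, and 46.3, 30.3, 5.53, 4.88 and 6.41 in WT. The pooled WT libraries were highest, and the single-mouse WT libraries lay within the range of the other genotypes. The library of the first title code was the highest of each genotype. Ighm differed from WT by -1.12 ± 0.69 in LCDD (SE, edgeR adjusted p = 0.612) and -1.38 ± 0.70 in DH-LMP2A (SE, edgeR adjusted p = 0.446). With the title code as a block the SEs were smaller and Ighm was still not called. The differences were then -0.92 ± 0.37 (SE, edgeR adjusted p = 0.224) and -1.35 ± 0.37 (SE, edgeR adjusted p = 0.0726).

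Ighd (chr12:113406604-113416324, minus strand), the constant region of IgD on naive B cells, was found at 0.499, 0.602, 0.916 and 1.26 CPM in LCDD, 0.599, 1.0002, 1.08 and 0.851 in DH-LMP2A, and 13.1, 5.07, 2.44, 1.48 and 2.27 in WT. WT did not overlap either other genotype, but the call was missed: the log2 differences were -2.57 ± 0.61 for LCDD (SE, edgeR adjusted p = 0.0531) and -2.47 ± 0.61 for DH-LMP2A (SE, edgeR adjusted p = 0.103). Ighd was called in both by DESeq2 (adjusted p = 0.000566 and 0.00205) and in both without the single-mouse WT libraries (edgeR adjusted p = 0.0136 and 0.0152). It was called in neither with the title code as a block (edgeR adjusted p = 0.0727 and 0.0726). Neither call was made with only the genotypes compared in the fit or with the sex marker covariate. For LCDD against WT, Ighd was also called with no filter on low counts and without WT 4. For DH-LMP2A against WT, leaving out any single library gave no call of Ighd. WT 1 was the highest library, and without it the LCDD difference was -1.77 (edgeR adjusted p = 0.045).

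The IgG genes, constant regions of class-switched antibodies, were patchy. Ighg1 had 64, 54, 0 and 0 reads in LCDD, 6, 108, 2 and 0 in DH-LMP2A, and 3, 0, 6, 6 and 20 in WT, so 3 libraries held most of its reads. Its log2 difference from WT was 1.95 ± 1.43 for LCDD (SE, edgeR adjusted p = 0.707) and 1.92 ± 1.43 for DH-LMP2A (edgeR adjusted p = 0.613), and without DH-LMP2A 2 the latter was -1.26. Ighg2b had 1, 6, 0 and 1 reads in LCDD, 4, 11, 4 and 0 in DH-LMP2A, and 2, 7, 4, 21 and 14 in WT, and was not called. Ighg2c had no read in any LCDD library, 0, 3, 5 and 0 in DH-LMP2A, and 1, 8, 23, 26 and 9 in WT. Its mean WT level was at least 4.69-fold above the floor of 3 counts per LCDD library; DESeq2, run without the filter, called it lower in LCDD. As background, BALB/c mice carry an Ighg2a allele where C57BL/6 mice carry Ighg2c; Ighg2a is not analysed here, and which allele these mice carry was not tested. Coding sequences of Ighg2b and Ighg2c are 85.6% identical and share 6 of 933 windows of read length. Only exact matches in the reference coding sequence were compared, so how reads of these mice fell between these rows was not tested.

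Outside the members, Ighg3 had 5, 16, 7 and 5 reads in LCDD, 11, 51, 16 and 0 in DH-LMP2A, and 1 to 5 per WT library (DH-LMP2A against WT 2.75 ± 0.91, SE, edgeR adjusted p = 0.229). Ighe, the constant region of IgE, had 8 reads in LCDD 1 and 22 in DH-LMP2A 1, both of the first title code, and 0 in the other libraries of those genotypes; WT had 0 to 4.

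Heavy-chain isotype balance was compared within libraries, which needs no scaling between them. Igha made up 0.483% to 2.85% of the counts of the 6 heavy-chain genes in LCDD and 1.08% to 3.43% in DH-LMP2A. In WT it made up 12.8% (95% Wilson interval 11.4% to 14.3%) in WT 1, 24.2% (21.3% to 27.4%) in WT 2, and 79.2%, 86.5% and 80.2% in the single-mouse libraries. Ighm held 66.3% to 85.4% in LCDD, 45.0% to 91.9% in DH-LMP2A, 67.7% and 63.3% in the pooled WT libraries and 7.52% to 12.4% in the single-mouse ones. The lowest Ighm share outside WT was in DH-LMP2A 2, where Ighg1 held 38.8%. These intervals cover counting error only.

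The ratio of Ighm to Igha reads (0.5 added to each count) was 116, 21.8, 44.6 and 116 in LCDD, 75.7, 27.9, 21.5 and 22.1 in DH-LMP2A, and 5.30, 2.61, 0.157, 0.0873 and 0.152 in WT. All LCDD and DH-LMP2A libraries lay above all WT libraries. On the log2 scale LCDD averaged 5.91 ± 1.17 (SD, n = 4), DH-LMP2A 4.98 ± 0.86 (SD, n = 4) and WT -1.02 ± 2.71 (SD, n = 5). The differences from WT, 6.93 for LCDD and 6.01 for DH-LMP2A, each had p = 0.0159 in a two-sided exact permutation test, the smallest this test can give for 4 against 5 libraries, and 0.0714 after adjustment over 9 ratio tests. Within title codes 1, 3 and 4 the LCDD difference was 4.45, 4.10 and 9.82, and the DH-LMP2A difference 3.84, 3.04 and 7.44. Without the single-mouse libraries the differences were 4.02 and 3.09. LCDD and DH-LMP2A differed by 0.92 (exact permutation p = 0.229, adjusted 0.343).

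**Figure D4:**
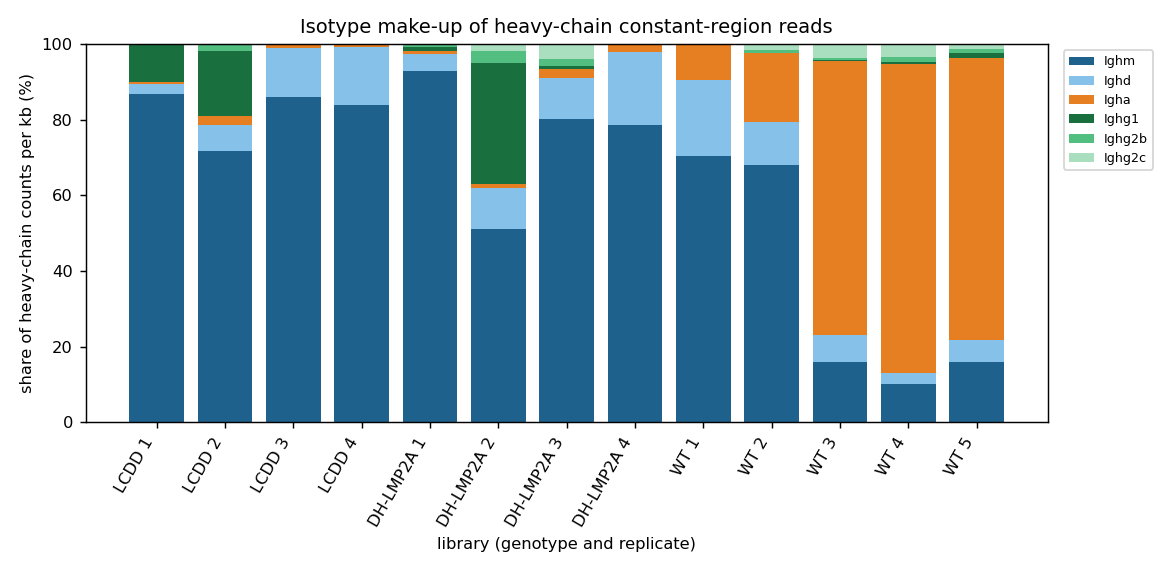
Share of each heavy-chain gene among the 6 heavy-chain genes in each library, from counts per kilobase of exon length, in percent. Igha fills most of the 3 single-mouse WT bars (WT 3, 4 and 5) and little of any LCDD or DH-LMP2A bar, and Ighg1 stands out in DH-LMP2A 2, LCDD 2 and LCDD 1.

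Kappa dominated the light chains in every library. Igkc made up 90.4%, 85.8%, 89.6% and 91.5% of the reads on Igkc, Iglc1 and Iglc2 in LCDD, 90.6%, 73.0%, 82.6% and 89.3% in DH-LMP2A, and 88.0%, 90.2%, 98.5%, 95.4% and 97.6% in WT. The single-mouse WT libraries were highest, and the pooled WT libraries lay among the other genotypes. The lowest share, in DH-LMP2A 2, had a 95% Wilson interval of 66.3% to 78.8%. The log2 ratio of kappa to lambda averaged 3.06 ± 0.34 for LCDD (SD, n = 4), 2.46 ± 0.81 for DH-LMP2A (SD, n = 4) and 4.35 ± 1.33 for WT (SD, n = 5). No pair of genotypes passed the two-sided exact permutation test (adjusted p = 0.343 for LCDD against DH-LMP2A, 0.321 for LCDD against WT and 0.238 for DH-LMP2A against WT). Within title codes 1, 3 and 4 the difference of LCDD from WT was 0.34, -0.13 and -1.85, and that of DH-LMP2A from WT 0.36, -0.99 and -2.27. Within all 4 codes LCDD less DH-LMP2A was -0.02, 1.15, 0.85 and 0.42. Without the single-mouse libraries LCDD and WT differed by 0.02.

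Per kilobase of exon, light-chain reads exceeded heavy-chain reads in all 13 libraries, with ratios of 2.00 to 4.25 in LCDD, 2.04 to 2.80 in DH-LMP2A and 1.47 to 6.75 in WT. The heavy-chain genes are longer, so the ratio of plain reads, which was the one tested, is lower and does not compare levels. That ratio of the 3 light-chain genes to the 6 heavy-chain genes (0.5 added to each sum) was 0.538, 0.919, 1.18 and 0.629 in LCDD, 0.568 to 0.680 in DH-LMP2A, and 0.399, 1.75, 0.607, 0.634 and 0.611 in WT. The mean log2 ratios were -0.36 ± 0.52 (SD, n = 4), -0.70 ± 0.11 (SD, n = 4) and -0.52 ± 0.79 (SD, n = 5). No pair differed beyond its spread (two-sided exact permutation, adjusted p = 0.441 for LCDD against DH-LMP2A and 0.825 for each against WT). Within title codes 1, 3 and 4, LCDD less WT was 0.43, -0.57 and 0.03, and DH-LMP2A less WT 0.59, -1.49 and -0.12; LCDD less DH-LMP2A was -0.17, 0.43, 0.92 and 0.15 in codes 1 to 4.

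**Figure D5:**
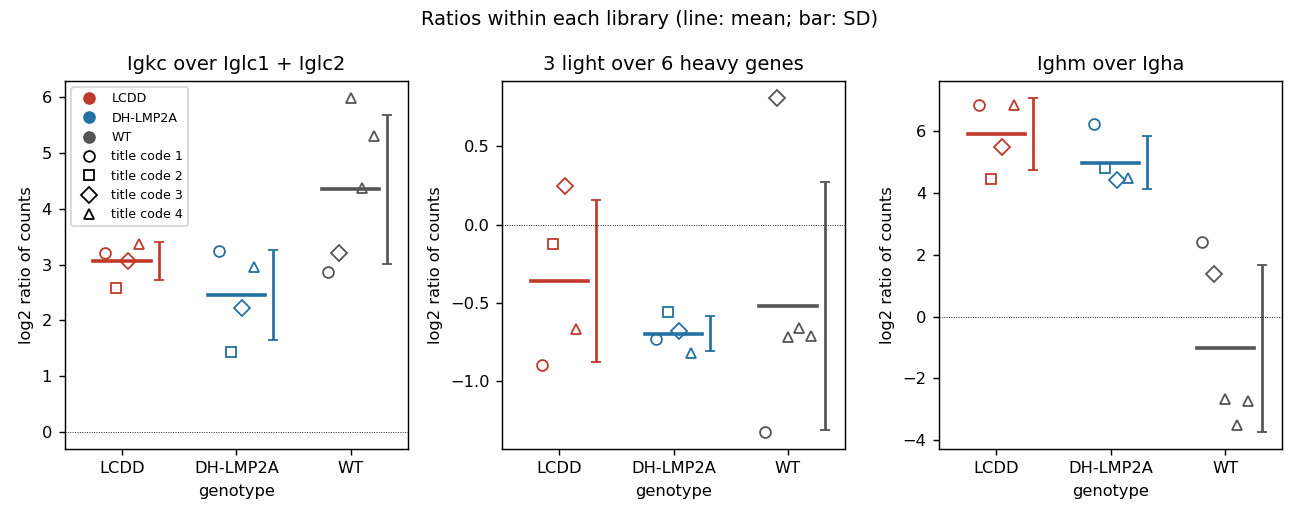
log2 ratios of counts within each library for kappa over lambda, light over heavy and Ighm over Igha; color gives the genotype, shape the title code, the line is the mean and the bar the SD. The Ighm over Igha panel shows all 5 WT libraries below the others, and the other panels show overlap.

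Per kilobase of exon, which allows levels of different genes to be compared, Igkc led with means of 13.4 ± 3.39 CPM per kilobase for LCDD (SD, n = 4), 9.42 ± 4.09 for DH-LMP2A (SD, n = 4) and 74.1 ± 39.7 for WT (SD, n = 5). Second was Ighm in LCDD (4.57 ± 2.45) and DH-LMP2A (3.81 ± 2.20). In WT the next were Igha (11.6 ± 7.61) and Ighm (9.91 ± 9.97), whose order differed between libraries. Ighm was higher in WT 1 and WT 2 (24.6 and 16.1, against 3.27 and 4.35 for Igha). Igha was higher in WT 3, WT 4 and WT 5 (13.3, 21.0 and 15.8, against 2.93, 2.59 and 3.40 for Ighm). Igha ranked eighth of the 10 in LCDD and last in DH-LMP2A.

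Markers of the cells that make immunoglobulin were set beside these results. Of the 15 B cell genes listed, 14 were tested and edgeR called none in any comparison. Their median log2 fold change was -1.43 for LCDD against WT (12 of 14 lower, 6 with an unadjusted p under 0.05), -1.09 for DH-LMP2A against WT (13 of 14 lower, 4 unadjusted) and -0.24 for LCDD against DH-LMP2A (10 of 14 lower, 1 unadjusted). In the same order, 2002, 2085 and 2193 of all 16738 genes tested had an edgeR unadjusted p under 0.05. The unadjusted counts of the lists below have this same background. DESeq2 called Cd37 higher in LCDD than in DH-LMP2A and WT, and no other B cell gene. The 15 markers summed to 104 to 133 CPM in LCDD, 96.0 to 107 in DH-LMP2A and 88.5 to 155 in WT, but Ebf1 alone made up 48.5% to 90.1% of the sum in each library. Without Ebf1, the other 14 genes summed to 20.3 to 28.2 CPM in LCDD, 9.94 to 23.3 in DH-LMP2A, and 79.7, 42.4, 11.5, 10.7 and 17.1 in WT replicates 1 to 5. The pooled WT libraries lay above all others, and the single-mouse WT libraries did not. The most abundant of the list per kilobase were Ebf1, Cd37 and Cd79a. Cd79a, a chain of the B cell receptor signalling complex, was found at 9.67, 4.57, 1.32, 1.21 and 1.62 CPM in WT, 0.715 to 1.496 in LCDD and 1.21 to 3.26 in DH-LMP2A. Of the 15 genes, 13 were highest within WT in WT 1, which was also the highest library for Ighm and Ighd and the lowest WT library for Igha. The part of B cell number in these results was not tested.

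Of 15 plasma cell genes, 14 were tested and none was called by edgeR or DESeq2; at an unadjusted p under 0.05 there were 1, 1 and 3 for LCDD against DH-LMP2A, LCDD against WT and DH-LMP2A against WT. Their median log2 fold changes were 0.10, 0.10 and 0.02. Summed levels were 514 to 652 CPM in LCDD, 412 to 580 in DH-LMP2A and 493 to 560 in WT. The most abundant, Xbp1, Creld2 and Txndc5, act in the secretory pathway of many cells. Tnfrsf17, the plasma cell receptor BCMA, had 0 reads in 10 of the 13 libraries and at most 3 in the rest. Other genes of the list were above the floor: Mzb1 had 6 to 38 reads per library, Derl3 13 to 46 and Sdc1, which other cell types also express, 861 to 3300. The 10 T cell genes summed to 11.9 to 16.8 CPM in LCDD, 8.26 to 12.3 in DH-LMP2A and 7.43 to 18.5 in WT. Of other lists, the 10 myeloid genes were all lower in DH-LMP2A than in WT (median log2 fold change -0.69, 4 with an unadjusted p under 0.05), and so were the 5 glomerular endothelial genes (median -0.80, 3 unadjusted); none was called. Against LCDD, DH-LMP2A was lower for all 10 myeloid and all 5 endothelial genes (medians of LCDD over DH-LMP2A 0.65 and 0.53), again with none called. All 6 podocyte and all 5 red cell genes were lower in LCDD than in WT (medians -0.50 and -0.53). They were also lower in LCDD than in DH-LMP2A (medians -0.47 and -0.71). For LCDD against DH-LMP2A, 4 of the 5 mesangial genes had an unadjusted p under 0.05, not all in the same direction. None of these genes was called.

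Receptors that bind or carry immunoglobulin were not called by edgeR: 0 of 10 in each comparison, with 0, 0 and 3 at an unadjusted p under 0.05 in the same order, while DESeq2 called Fcamr higher in DH-LMP2A than in WT. Pigr, which carries polymeric IgA and IgM across epithelia, was found at 2.21 to 13.1 CPM in LCDD, 6.54 to 24.8 in DH-LMP2A and 2.47 to 12.1 in WT. Markers of the tubule, the part of the nephron after the glomerulus, summed to 726 to 2304 CPM in LCDD and 1009 to 3933 in DH-LMP2A. In WT replicates 1 to 5 they summed to 3354, 439, 257, 271 and 782 CPM. All WT libraries but WT 1 lay below every DH-LMP2A library. All 8 markers were lower in LCDD than in DH-LMP2A (median log2 fold change -0.78), with none called. Only Kap was called in any comparison, higher in DH-LMP2A than in WT (3.85 ± 0.78, SE, edgeR adjusted p = 0.0479). Kap differed by 2.82 ± 0.75 for LCDD against WT (SE, edgeR adjusted p = 0.0860). Whether Kap follows tubule content or the sex markers was not tested. The part of these receptors and tubule markers in the immunoglobulin levels was not tested.

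Across the 13 libraries, the non-immunoglobulin genes most like Igkc in log2 CPM were Nxpe2 (Pearson r = 0.92), Sptlc1 (0.92), Cyp26a1 (0.92), 2210409E12Rik (0.92) and Nxpe4 (0.91). Of these, Nxpe2, Cyp26a1, 2210409E12Rik and Nxpe4 were called lower in both LCDD and DH-LMP2A than in WT. They were picked from the same libraries for likeness to Igkc, which was highest in WT, so these calls are not independent of it. None of the 5 genes is a B cell or plasma cell gene of the lists. Those most like Ighm were Cd79b (0.94), Cd22 (0.91), Fcmr (0.90), Ptprcap (0.90) and Gm43042 (0.89), of which Cd79b, Cd22 and Fcmr are on the B cell list. These correlations describe 13 libraries that fall into genotypes and share title codes.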

How the data were processed

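Messenger RNA of 13 glomerular libraries was measured as raw counts per gene, deposited by the authors. The submitters' processing notes name STAR 2.4.0a, featureCounts, Subread 1.5.0-p3 and DESeq2 with the builds mm10 and GRCm38, without roles. Whether counting used strand, how reads with several matches were handled, and which annotation served are not given in the sources used here. The table also holds exon lengths and spans, as deposited by the authors; the spans of all 10 members equal those of GENCODE M21 on GRCm38.

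Genes were tested with edgeR 4.0.16 (R 4.3.3): filterByExpr (minimum count 10) left 16738 genes and removed 30220, TMM factors scaled the counts, 1 quasi-likelihood fit by genotype took in all 13 libraries, and Benjamini-Hochberg adjustment ran over the tested genes. Called means an adjusted p under 0.05. The SE is the absolute log2 fold change over the square root of F; log2 CPM used a prior count of 2. Ratios used counts plus 0.5. The floor is 3 counts, 0.0971 to 0.185 CPM. In simulated data on 16501 genes, 88.5% of changed genes were recovered for LCDD against DH-LMP2A and 91% for LCDD against WT. False calls numbered 8 and 6. No gene was changed between DH-LMP2A and WT, where 0 false calls were made and recovery was not measured. Every simulated gene had the same spread between replicates, the changes had fixed sizes, and libraries of the same title code shared no effect. These recoveries therefore do not give the power for the members.

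Replicates are numbered in accession order within a genotype. Same-genotype libraries differed beyond sampling noise (chi-square per degree of freedom 12.6 to 233.9 over 22 pairs). That they are separate samples rests on the labels. Libraries of the same code deviated together from the means of their genotypes. The correlations were 0.15 to 0.59 (LCDD with DH-LMP2A), 0.13 to 0.40 (LCDD with WT) and 0.16 to 0.49 (DH-LMP2A with WT). The title code was therefore run as a block, as an alternative only. The main edgeR fit and the permutation tests of ratios did not use the code. The alternatives were DESeq2 1.42.0, RLE factors, other filters, only the genotypes compared, the block, a sex marker covariate, leaving out each library or the single-mouse WT libraries, and, chosen after seeing the data, leaving out the lowest title code; for ratios, a pseudocount of 2, counts per kilobase and the further genes Iglc3 and Ighg3.

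The genes named are the members, other constant-region genes with reads, the leading V segment of each genotype, list genes called or most abundant, and the 5 genes most like Igkc and Ighm; Nphs1, Pigr, Tnfrsf17, Mzb1, Derl3 and Sdc1 were named after their values were seen. Members and lists were chosen with earlier results of these data known.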

Additional observations from a re-analysis of the deposited data

Results flagged for a closer look

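Among 39 groups of values (each member in each genotype, and the ratios), 4 held a library far from the others by Dixon's criterion, where chance gives about 1.95. Ighm in LCDD 1 was 3.97 in log2 CPM, against 2.79 for the next LCDD library. Igha in DH-LMP2A 3 was -1.23 in log2 CPM, against -2.10 for the next, which rests on 6 reads. Jchain in LCDD 4 was -2.30 in log2 CPM (3 reads), against 0.21 for the next lowest. Jchain in WT 1 was 1.15 in log2 CPM, against 2.99 for the next lowest WT library.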

How the results depend on the processing

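Counts of called members stayed within 1.5 times in 65 of the recomputed values and moved in 1: DESeq2 called 6 in LCDD against WT, adding Iglc2, Ighd and Ighg2c. Leaving out single libraries gave 2 to 4 called members for LCDD against WT, 2 to 3 for DH-LMP2A against WT and 0 for LCDD against DH-LMP2A. With the title code as a replicate block, 4 were called in each comparison with WT, adding Iglc2, and no other call changed. Of the member fold changes, 522 kept direction and side of the threshold, 12 gained a call, 14 lost one and 18 changed sign; none of the sign changes was in a called gene. For LCDD against DH-LMP2A, Iglc1 was 0.093 with the block and 0.11 with the sex marker covariate, and Ighg1 was -1.003 without the lowest title code. Ighg1 in DH-LMP2A against WT was -0.80 with the block. Leaving out single libraries gave, for LCDD against DH-LMP2A, -0.48 to 0.51 (Iglc1), -0.19 to 0.70 (Ighm), -0.40 to 0.074 (Ighd) and -0.66 to 3.24 (Ighg1). The same range for Iglc1 was -1.74 to 0.22 in LCDD against WT and -1.87 to 0.34 in DH-LMP2A against WT, where Ighg1 spanned -1.26 to 2.32. Of the ratio results, 6 reversed and the rest kept their direction or stayed within the spread, none of them past the threshold in either form. For LCDD against WT, light to heavy was -0.0547 per kilobase, -0.103 without single-mouse WT libraries, -0.0368 as the mean within title codes and -0.0418 to 0.492 leaving out single libraries; kappa to lambda was 0.0235 without single-mouse WT libraries. Light to heavy in DH-LMP2A against WT spanned -0.376 to 0.157 leaving out single libraries. The cause of these changes was not tested. Depth limits Igha, the IgG genes and the J segments, which lie near 3 counts in most LCDD and DH-LMP2A libraries.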
